A study of Mus musculus with 12 samples.

Results

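The tuft cell genes Dclk1, Trpm5, Pou2f3, Gnat3, Alox5, Sh2d6, Il25 and Gfi1b were followed in the colon of mice that lacked LAO1, IL4i1 or both. They were found by symbol in the platform annotation, 8 of 19505 named genes, and each had 1 probe. The mice were male, healthy and 12 to 16 weeks of age. Affymetrix arrays, 3 for each of 4 genotypes, covered wild type, the knockout of LAO1, that of IL4i1 and the double knockout of both. LAO1 and IL4i1 are L-amino acid oxidases, and the study asked how the loss of both acts on the colon, with inflammation as its subject. The strain and the way the knockouts were made are not given in the sources used here. The labels say that 4 mice were chosen per genotype and do not say that each array held the RNA of a separate mouse, so the spread behind each p-value is that of the arrays and may be partly technical.

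Tuft cells are rare chemosensory cells of the gut epithelium with a tuft of stiff microvilli. They sense luminal signals through a taste-like cascade in which a receptor activates the G protein gustducin, phospholipase C opens calcium stores, and calcium opens the cation channel Trpm5. They make the cytokine IL-25 and cysteinyl leukotrienes, which act on innate lymphoid cells, and the IL-13 those cells release drives progenitors towards more tuft and goblet cells. Pou2f3 is the transcription factor the lineage depends on.

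Of the members, Gnat3 encodes the alpha subunit of gustducin and Alox5 the lipoxygenase that opens leukotriene synthesis. Their levels varied together more closely than those of any other member pair across the 12 arrays, so the 100 bases before the start site of each are shown, from RefSeq in build GRCm38.p6. The Gnat3 window is chr5:17962470-17962569 on the plus strand and the Alox5 window chr6:116461179-116461278 on the minus strand, both written 5′ to 3′.
Gnat3: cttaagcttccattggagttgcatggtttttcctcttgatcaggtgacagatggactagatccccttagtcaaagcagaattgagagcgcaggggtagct
Alox5: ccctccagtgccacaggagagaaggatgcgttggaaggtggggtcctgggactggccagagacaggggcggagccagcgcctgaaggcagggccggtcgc
The windows were unlike in base composition, with 47.0% G and C for Gnat3 and 69.0% for Alox5. The octamer ATGCAAAT, the motif of POU factors, was searched on both strands in the promoters of RefSeq's table, which run from 250 bases before to 50 after a start site. It was present in 1.74% of 32851 promoters and in 0 of the 7 listed for 6 members (Dclk1 has 2). Its first 7 letters, ATGCAAA, were in 4.63% of all and again in 0 of the 7, so no base is set in capitals. Pou2f3 and Il25 were not matched in that table.

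No tuft cell gene passed the test in any of 7 comparisons. These were the 6 pairs of genotypes and the interaction, the part of the double knockout's difference from wild type that the sum of the differences of the single knockouts leaves. The test was limma's, at a Benjamini-Hochberg adjusted p of 0.05 over 22206 probes. The share of all probes past it was 0.0225% for the double knockout, 0.0045% for the LAO1 knockout and 0.0135% for the IL4i1 knockout against wild type. It was 0.14% and 0.477% for the double knockout against the LAO1 and the IL4i1 knockout, 0.0045% between the single knockouts and 0.23% for the interaction, a background beside which 0 of 8 members says little. At an unadjusted p under 0.05 stood Gnat3 in the double knockout against wild type and against the IL4i1 knockout, and Sh2d6 between the single knockouts (limma), that is 1 of 8 in each of 3 comparisons where 7.44%, 9.83% and 5.84% of all probes did. In the LAO1 and the IL4i1 knockout against wild type, the double against the LAO1 knockout and the interaction 0 of 8 did, against 3.02%, 7.58%, 7.15% and 7.12% of all probes.

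Whole arrays were alike, with pairwise correlations between 0.964 and 0.99. Some stood apart in genes of other cell types. In double knockout replicate 1 the mean log2 value of 9 of 10 neutrophil markers was 4.78, against 3.81 to 4.26 in the other 11 arrays. S100a8, S100a9 and Csf3r were highest there, at 5.88, 7.09 and 6.65. None of the other markers was, and Camp, at 2.58, was the lowest of all arrays there. In double knockout replicate 2, 10 of 11 markers of pancreatic acinar cells averaged 15.01 against 3.73 to 4.41. The epithelial markers, 9 of 9, averaged 15.4 to 16.43 in all arrays. Lao1 itself was dim in every array, at 2.64 to 3.56 on the log2 scale, and was not lower where it is labelled as deleted, with means of 3.0 in wild type, 3.01 in the LAO1 knockout, 3.16 in the IL4i1 knockout and 3.4 in the double knockout. The sources used here do not tell where its probe lies relative to the deletion. Il4i1 was not measured by a named probe. The genotypes are therefore those the labels give. In whole tissue, fewer tuft cells and less RNA per tuft cell cannot be told apart.

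**Figure D1:**
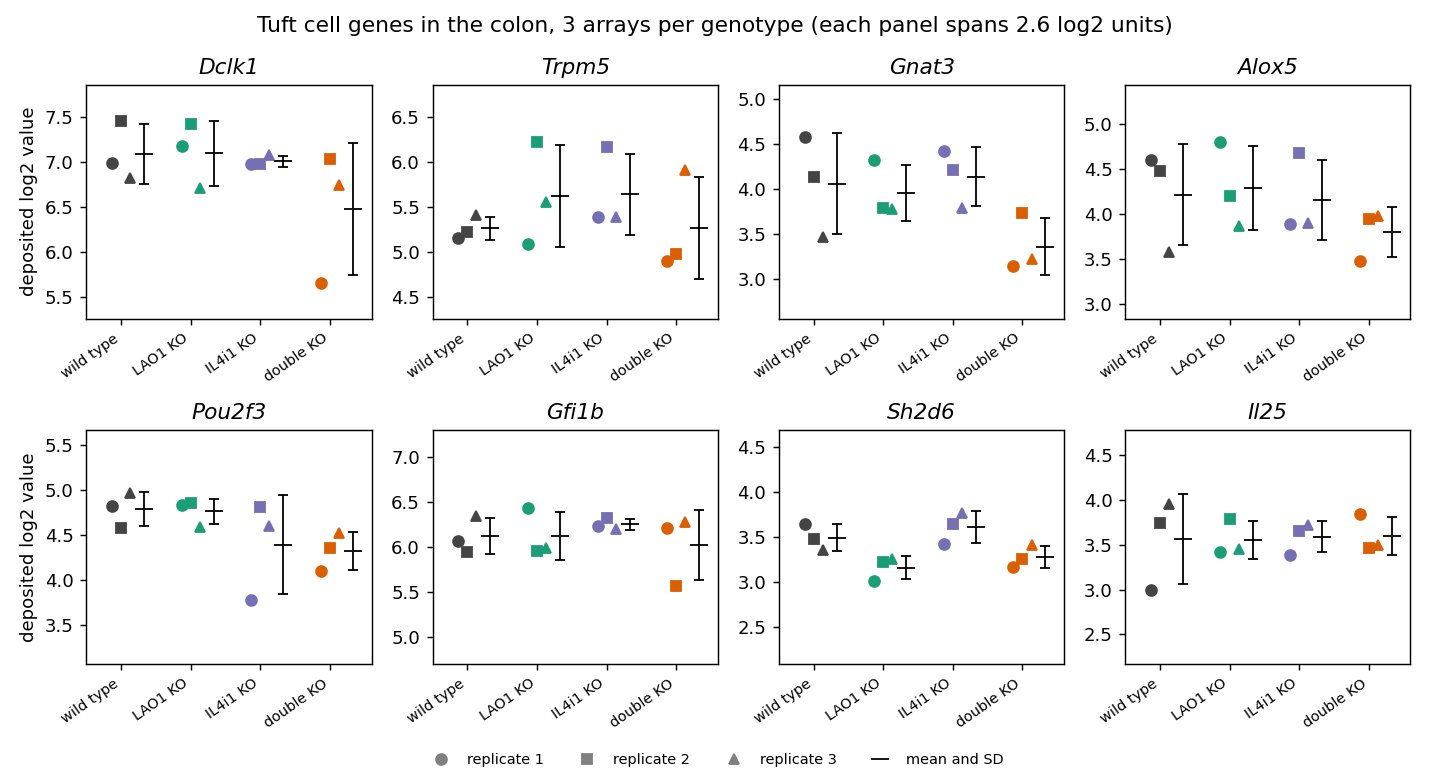
Deposited log2 value (vertical axis) of the 8 tuft cell genes by genotype (horizontal axis), a point for each array, its shape giving the replicate number, and a bar with whiskers for the mean and SD over 3 arrays. Double knockout replicate 1 is the lowest of the 12 arrays for Dclk1, Trpm5, Gnat3 and Alox5, while Il25 spreads as widely within wild type as over all arrays.

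Gnat3, the gustducin subunit that passes the signal of taste-type receptors on, showed the largest difference of the double knockout from wild type among the members. Values named as without LAO1, without IL4i1 or without both are those of the 3 knockout genotypes, in the order of the replicate numbers. Its log2 values were 4.58, 4.14 and 3.47 in wild type, 4.32, 3.79 and 3.78 without LAO1, 4.43, 4.21 and 3.79 without IL4i1 and 3.14, 3.73 and 3.22 without both. The Gnat3 probe was dim, with a mean of 3.88 at the 27.3rd percentile of probe means. The double knockout arrays lay below every array of both single knockouts and overlapped with wild type, where replicate 3 was low. The log2 difference from wild type was -0.7 (SE 0.3, limma, adjusted p = 0.632), a level 0.616 of wild type with a 95% interval of 0.396 to 0.957. Against the IL4i1 knockout it was -0.78 (SE 0.3, adjusted p = 0.395) and against the LAO1 knockout -0.6 (SE 0.3, adjusted p = 0.72). Leaving out 1 array at a time gave -1.0 to -0.44 against wild type, the latter without wild type replicate 1. The single knockouts stood at -0.1 (LAO1, adjusted p = 1.0) and 0.08 (IL4i1, 0.966) from wild type.

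Trpm5, the channel that depolarises the cell at the end of the cascade, was at 5.15, 5.22 and 5.41 in wild type and at 4.89, 4.97 and 5.91 without both. It was at 5.09, 6.22 and 5.55 without LAO1 and at 5.38, 6.16 and 5.38 without IL4i1, so that replicate 2 of either single knockout was high. All groups overlapped. The means of wild type and the double knockout were both 5.26, with SDs of 0.13 and 0.57 (n = 3), and the interval of their difference ran from 0.605 to 1.65-fold. For the interaction Trpm5 had the lowest value of the members, -0.74 (SE 0.47, limma, adjusted p = 0.822).

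Dclk1, a microtubule-associated kinase widely used as a tuft cell marker, was at 6.99, 7.46 and 6.82 in wild type, 7.18, 7.42 and 6.71 without LAO1 and 6.98, 6.98 and 7.08 without IL4i1. In the double knockout it was at 5.66, 7.04 and 6.75. The first of these was the lowest of all arrays, next to 6.71, and the other two lay within the range of the other genotypes. The difference of the double knockout from wild type was -0.61 (SE 0.32, limma, adjusted p = 0.729), and -0.2 without that array. Dclk1 is also found in nerve and stroma. The markers of enteric neurons and glia (10 of 12 measured) averaged 5.44 to 5.58 in wild type and 5.21 to 5.51 in the double knockout. They averaged 5.09 to 5.57 in the LAO1 knockout and 5.57 to 5.82 in the IL4i1 knockout. Their part in the Dclk1 values was not tested.

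Alox5, which starts leukotriene synthesis, was at 4.61, 4.48 and 3.58 in wild type, 4.8, 4.2 and 3.87 without LAO1, 3.89, 4.68 and 3.9 without IL4i1 and 3.48, 3.95 and 3.98 without both. Every genotype overlapped with every other. The double knockout stood at -0.42 from wild type (SE 0.33, limma, adjusted p = 0.826), and at -0.26 without its replicate 1 and -0.74 without wild type replicate 3. Mast cells, neutrophils and macrophages also make this enzyme. The mast cell markers, 11 of 11, averaged 5.3 to 6 in wild type, 4.73 to 4.88 in the LAO1 knockout, 4.16 to 4.29 in the IL4i1 knockout and 5.7 to 6.17 in the double knockout. Mcpt1, Mcpt2 and Cpa3 varied most, Mcpt1 with group means of 11.19, 7.42, 3.36 and 12.71 in that order. Not every marker followed, with Kit at 12.06, 12.05, 11.03 and 10.92 and Tpsab1 at 2.5, 2.58, 2.62 and 2.58. Alox5 had group means of 4.22, 4.29, 4.16 and 3.8 in the same order. The macrophage markers (8 of 10 measured) averaged 6.98, 6.5, 6.16 and 7.01 over the arrays of each group. The neutrophil markers averaged 4.2, 3.95, 4.11 and 4.27, and double knockout replicate 1, the highest in their mean, was the lowest in Alox5. The part of these cells in the Alox5 values was not tested.

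Pou2f3, the transcription factor the lineage requires, was at 4.82, 4.58 and 4.96 in wild type and at 4.83, 4.85 and 4.59 without LAO1. It was at 3.77, 4.81 and 4.6 without IL4i1 and at 4.1, 4.35 and 4.52 without both. All arrays of the double knockout lay below all of wild type and of the LAO1 knockout, and the IL4i1 knockout spanned both sides, with its replicate 1 the lowest of all. The differences of the double knockout were -0.46 from wild type (SE 0.26, limma, adjusted p = 0.74) and -0.43 from the LAO1 knockout (SE 0.26, adjusted p = 0.796). Pou2f3 was the 1 member of 8 whose double knockout arrays all lay below wild type, where 5.95% of all probes did, and against the LAO1 knockout it and Gnat3 were 2 of 8, where 6.46% did.

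Gfi1b, a zinc finger repressor of tuft cells that is better known from platelet and red cell precursors, was at 6.07, 5.94 and 6.34 in wild type, 6.43, 5.95 and 5.99 without LAO1, 6.23, 6.32 and 6.2 without IL4i1 and 6.21, 5.57 and 6.28 without both. Its one low value lay in double knockout replicate 2, the array with the acinar genes. The difference from wild type was -0.1 (SE 0.23, limma, adjusted p = 0.957) and 0.13 without that array. Markers of megakaryocytes, platelets and red cells (7 of 11 measured) averaged 4.65 to 4.89 in wild type and 4.38 to 4.6 in the double knockout. They averaged 4.45 to 4.72 in the LAO1 knockout and 4.66 to 4.84 in the IL4i1 knockout. Their part in the Gfi1b values was not tested.

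Sh2d6, an SH2 domain protein found in tuft cells, varied least of the members, with a range of 0.76 over the 12 arrays. It was at 3.64, 3.48 and 3.35 in wild type, 3.01, 3.22 and 3.26 without LAO1, 3.42, 3.64 and 3.77 without IL4i1 and 3.17, 3.26 and 3.41 without both. The LAO1 knockout lay below every wild type and every IL4i1 knockout array, and the double knockout below every IL4i1 knockout array. The LAO1 knockout stood at -0.45 from the IL4i1 knockout (SE 0.18, limma, unadjusted p = 0.0298, adjusted p = 0.843) and at -0.33 from wild type (SE 0.18, adjusted p = 1.0). The double knockout stood at -0.33 from the IL4i1 knockout (SE 0.18, adjusted p = 0.602). The interaction was 0.0 (SE 0.26, adjusted p = 0.999). Groups that lay apart in the lower direction made up 5.83% of all probes between the single knockouts and 3.86% for the LAO1 knockout against wild type. For the double knockout against the IL4i1 knockout the share was 6.62%, and Gnat3 was the other such member.

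Il25, the cytokine by which tuft cells call on innate lymphoid cells, was at 3, 3.74 and 3.95 in wild type, 3.42, 3.79 and 3.45 without LAO1, 3.39, 3.65 and 3.72 without IL4i1 and 3.84, 3.46 and 3.5 without both. Both its lowest and its highest value lay in wild type. The group means were 3.56 ± 0.5, 3.55 ± 0.21, 3.59 ± 0.17 and 3.6 ± 0.21 in that order (SD, n = 3). For the double knockout against wild type the interval ran from 0.707 to 1.49-fold (limma, adjusted p = 0.988). Its probe was dim, at the 20.9th percentile of probe means, as was that of Sh2d6 at 16.5. Dclk1 (65.2) and Gfi1b (57.4) were the 2 members above the middle of all probes, and Il25 and Sh2d6 the 2 below the lower quartile. Between them lay Gnat3 (27.3), Alox5 (31.5), Pou2f3 (38.5) and Trpm5 (49.8).

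**Figure D2:**
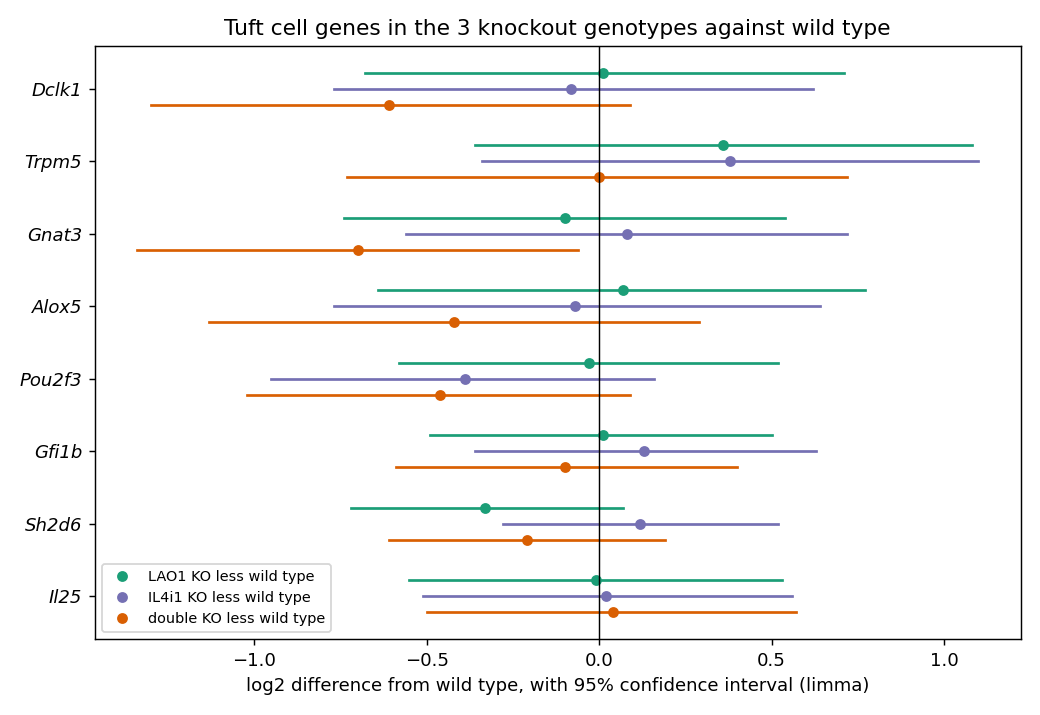
Log2 difference from wild type (horizontal axis) of each tuft cell gene (vertical axis) in the LAO1, IL4i1 and double knockout, with 95% confidence intervals from limma, unadjusted for the number of probes. The double knockout interval of Gnat3, from -1.34 to -0.06, leaves out 0, and 1 of the 24 intervals drawn does so.

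As a group, the members had a median log2 difference of -0.32 in the double knockout against wild type, where all probes had a median of 0.0. Members below 0 numbered 6, with Trpm5 at 0.0 and Il25 at 0.04, against 49.0% of all probes. Against the LAO1 knockout the median was -0.4 and against the IL4i1 knockout -0.34 (all probes -0.01 and -0.02), with 6 and 7 of 8 below 0 against 50.5% and 52.2% of all probes. These 3 comparisons share the double knockout arrays. Without replicate 1 of the double knockout the medians were -0.19, -0.2 and -0.2, and 7 of 8 members were below 0 in each. The LAO1 and the IL4i1 knockout had medians of 0.0 and 0.05 from wild type, and the former a median of -0.03 from the latter. The median interaction was -0.33, with 6 of 8 below 0 against 53.0% of all probes.

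In the LAO1 knockout against wild type the differences ran from -0.33 for Sh2d6 to 0.36 for Trpm5 (limma, all adjusted p 1.0), with 4 of 8 below 0 against 48.0% of all probes. Between them lay Gnat3 at -0.1, Pou2f3 at -0.03, Il25 at -0.01, Dclk1 and Gfi1b at 0.01 and Alox5 at 0.07. Without LAO1 knockout replicate 2 Trpm5 stood at 0.06. In the IL4i1 knockout they ran from -0.39 for Pou2f3 (adjusted p = 0.727) to 0.38 for Trpm5 (0.807), with 3 of 8 below 0 against 46.1% of all probes. Without IL4i1 knockout replicate 1 Pou2f3 stood at -0.08, and without replicate 2 Trpm5 stood at 0.12. The others were Dclk1 at -0.08 (0.972), Alox5 at -0.07 (0.976), Il25 at 0.02 (0.989), Gnat3 at 0.08 (0.966), Sh2d6 at 0.12 (0.903) and Gfi1b at 0.13 (0.915). In no member did the IL4i1 knockout arrays all lie below wild type, where 5.16% of all probes did. Sh2d6 in the double knockout stood at -0.21 from wild type (0.852), and at -0.13 without wild type replicate 1.

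Against the LAO1 knockout, Dclk1 had the largest difference of the double knockout, -0.62 (SE 0.32, limma, adjusted p = 0.746), and stood at -0.21 without double knockout replicate 1. Alox5 stood at -0.49 (0.833), and at -0.23 without LAO1 knockout replicate 1, and Trpm5 at -0.36 (0.895), and at -0.06 without LAO1 knockout replicate 2. Gfi1b stood at -0.1 (0.958), Il25 at 0.05 (0.986) and Sh2d6 at 0.12 (0.939). Against the IL4i1 knockout Dclk1 stood at -0.53 (0.634), and at -0.12 without double knockout replicate 1. Trpm5 stood at -0.38 (0.769) and Alox5 at -0.35 (0.788), and at -0.12 and -0.09 without IL4i1 knockout replicate 2. Gfi1b stood at -0.23 (0.808), and at -0.01 without double knockout replicate 2, with Pou2f3 at -0.07 (0.965) and Il25 at 0.01 (0.994). That of Gnat3 from the IL4i1 knockout lay between -0.96 and -0.64 with any 1 array left out.

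Between the single knockouts, the LAO1 less the IL4i1 knockout, values ran from -0.45 for Sh2d6 to 0.36 for Pou2f3 (limma, adjusted p = 0.865), with 5 of 8 below 0 against 50.8% of all probes. Pou2f3 stood at 0.05 there without IL4i1 knockout replicate 1. Gnat3 was at -0.18 (0.958), and at -0.04 without that array. Gfi1b was at -0.13 (0.961), Il25 at -0.03 (0.995), Trpm5 at -0.02 (0.997), Dclk1 at 0.09 (0.986) and Alox5 at 0.13 (0.972). For the interaction, Gnat3 stood at -0.68 (SE 0.42, 0.81), and at -0.38 without wild type replicate 3, and Dclk1 at -0.54 (0.874), and at -0.13 without double knockout replicate 1. Trpm5, given above at -0.74, stood at -0.44 without LAO1 knockout replicate 2. Alox5 was at -0.42 (0.912), and at -0.1 without wild type replicate 3, and Gfi1b at -0.24 (0.937), and at -0.01 without double knockout replicate 2. Pou2f3 was at -0.04 (0.992) and Il25 at 0.02 (0.995).

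**Figure D3:**
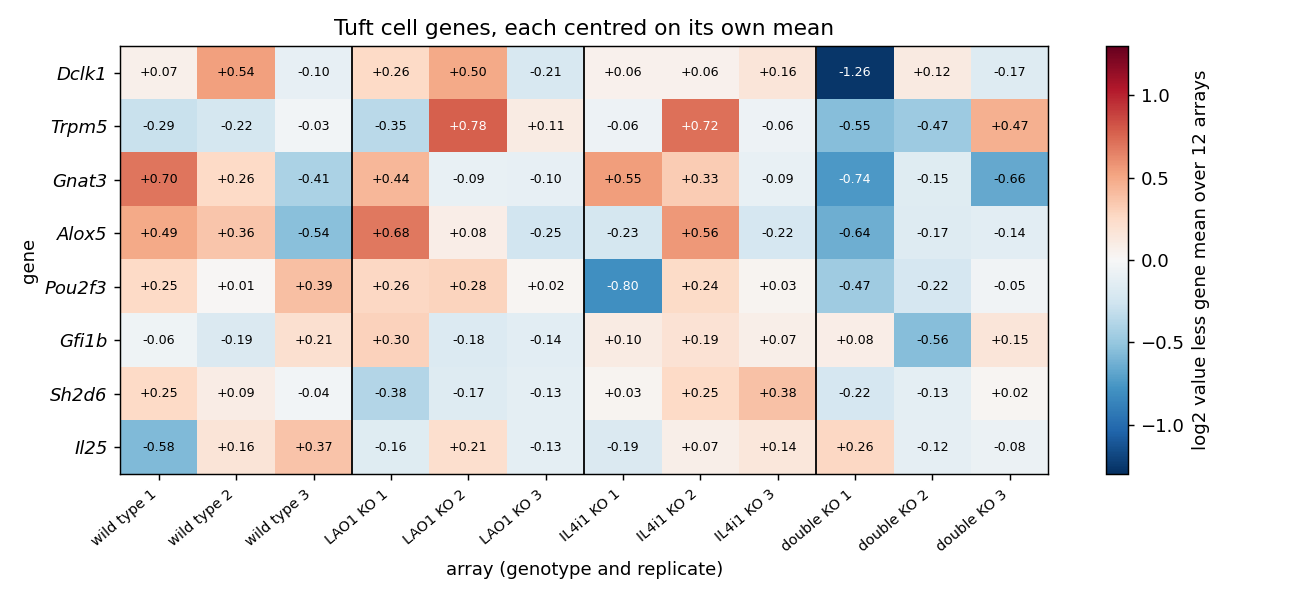
Log2 value of each tuft cell gene (rows) in each array (columns) less that gene's mean over the 12 arrays, printed in each cell and coloured from blue (lower) to red (higher). Double knockout replicate 1 is low in most rows, and IL4i1 knockout replicate 2 is above the mean in all 8.

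The lowest value of a member lay most often in 1 array. Double knockout replicate 1 was the lowest of 12 for 4 of the 8 members and among the 2 lowest for 6. The mean of the members, each centred on its own mean, was -0.44 in that array, -0.21 and -0.06 in double knockout replicates 2 and 3, and -0.1 to 0.3 in the other 9. The highest of these was IL4i1 knockout replicate 2, which was above the mean of the 12 arrays for all 8 members, by most for Trpm5 and Alox5. Double knockout replicate 1 was the highest of all arrays in the mean of the neutrophil markers given above. Its enteroendocrine markers (9 of 10 measured), which mark another rare epithelial cell, averaged 6.31 against 6.57 to 7.75 in the other 11 arrays. Double knockout replicates 2 and 3 were low in them too, at 6.57 and 6.71, where wild type ran from 6.63 to 7.49. Gcg and Insl5 were lowest of all arrays in replicate 1, Scg2 in replicate 2 and Chga, Chgb and Tph1 in replicate 3. Pyy, Sct and Pax4 were lowest in arrays of other genotypes. Goblet cell markers, 8 of 8, averaged 16.68 in double knockout replicate 1 and 16.6 to 17.9 elsewhere. The part of these in the tuft cell values was not tested.

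**Figure D4:**
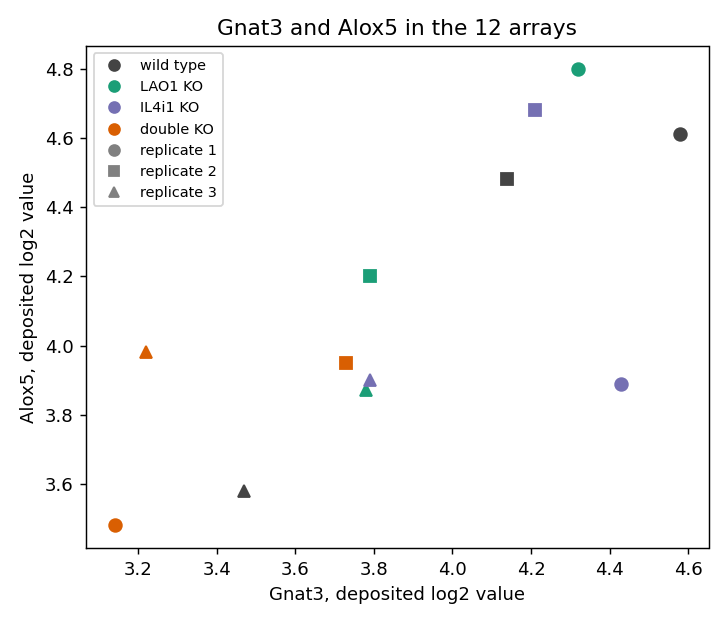
Deposited log2 values of Gnat3 (horizontal axis) and Alox5 (vertical axis) in the 12 arrays, coloured by genotype with the shape giving the replicate number. Arrays high in Gnat3 tended to be high in Alox5 (Pearson r 0.74), and double knockout replicate 1 is lowest in both.

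The members did not vary as 1 block over the arrays. Over 28 pairs the median Pearson r was 0.15, from -0.61 for Gnat3 and Il25 to 0.74 for Gnat3 and Alox5, with 22 pairs above 0. For Gnat3 and Alox5 Spearman's rho was 0.65. With 100000 permutations of the arrays the p was 0.00635 for r and 0.0257 for rho, and 0.178 and 0.282 after Benjamini-Hochberg adjustment over the 28 pairs, so this pair did not pass. Its r was 0.6 without the 2 arrays farthest from the median of Gnat3 and 0.72 with the genotype means removed, and 3 arrays per genotype are too few for a value within one. By r, Gnat3 was 46th among 19504 genes for Alox5, and Alox5 102nd for Gnat3. Trpm5 and Dclk1, both standard tuft cell markers, had an r of 0.32 and a rho of -0.04.

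Outside the members, the 10 genes most like the mean of the centred member values over the 12 arrays were Fbxo25 (Pearson r 0.92), Hexim1 (0.91), Rnf103 (0.9), Ceacam20 (0.87), Asb11 (0.86), Slmap (0.85), and Endod1, Nlrp9b, Bnip5 and Zfp300 (each 0.84). Without double knockout replicate 1 and IL4i1 knockout replicate 2, the arrays farthest from the median, their r lay between 0.53 and 0.81. None was on the lists of tuft cell or type 2 genes. Of those lists Rgs13, a regulator of G protein signalling, came first at rank 193 (r 0.7, and 0.23 without these 2 arrays). Chat, the enzyme of acetylcholine synthesis in tuft cells, followed at rank 322 (r 0.66, and 0.57 without them). The Chat probe was among the dimmest, at 2.31 to 2.91 over the 12 arrays, the 1.34th percentile of probe means.

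The other genes of the tuft cell programme were read from 5 lists, and 0 of their measured genes passed the limma test in any comparison. Most are named for having the smallest p of their list, so groups that do not overlap come partly with that choice. All double knockout arrays lay below wild type in 5.95% of all probes. The taste-type cascade had 12 of 13 genes measured, with 9 below 0 and a median log2 difference of -0.1 in the double knockout against wild type. The calcium store channel Itpr2 stood at -0.77 (SE 0.33, unadjusted p = 0.0345, adjusted p = 0.632), its arrays at 9.06, 9.66 and 10.05 against 10.42, 10.43 and 10.24, and the groups did not overlap. The short-chain fatty acid receptor Ffar3 was at -0.56 (adjusted p = 0.795) and the succinate receptor Sucnr1 at -0.32 (0.859). Itpr2 was also first in the double knockout against the LAO1 knockout (-0.92, adjusted p = 0.575) and the IL4i1 knockout (-0.81, 0.435), with Rgs13 next at -0.48 (0.81) and -0.69 (0.461). For the interaction Rgs13 stood at -0.93 (adjusted p = 0.688) and Itpr2 at -0.96 (0.717). Gnb3 and Plcb2, the beta subunit and phospholipase of the cascade, stood at -0.5 (0.843) and -0.49 (0.845) in the LAO1 against the IL4i1 knockout and at -0.37 and -0.36 (both 1.0) against wild type. In the IL4i1 knockout against wild type the taste receptor Tas1r1 stood at -0.31 (0.723) and Rgs13 at 0.45 (0.726).

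Of eicosanoid genes, 12 of 13 were measured, and 8 were below 0 with a median of -0.06 in the double knockout against wild type. Alox5ap, the partner protein that hands the substrate to Alox5, stood at -0.43 (limma, adjusted p = 0.728), with 5.91, 6.16 and 6.16 without both and 6.83, 6.34 and 6.36 in wild type, which did not overlap. Alox12 was at 0.45 (0.752) and the leukotriene receptor Cysltr1 at -0.58 (0.789). The thromboxane synthase Tbxas1, which macrophages and platelets also express, was at 5.52, 5.84 and 5.55 without IL4i1 and 7.56, 6.7 and 6.84 in wild type. Its differences were -1.4 there (SE 0.39, adjusted p = 0.52), 1.26 for the double against the IL4i1 knockout (0.257), 0.94 for the LAO1 against the IL4i1 knockout (0.843) and 1.72 for the interaction (0.46). Macrophage markers averaged 5.77 to 6.47 in the IL4i1 knockout, 6.32 to 6.7 in the LAO1 knockout and 6.45 to 7.59 in wild type, and their part was not tested. Cysltr1 stood at -0.84 in the IL4i1 knockout against wild type (0.651), at -0.62 in the double against the LAO1 knockout (0.809) and at 0.88 between the single knockouts (0.843). Alox12 (0.59) and Alox15 (-0.44; both 1.0) came first in the LAO1 knockout against wild type. Alox15 stood at 0.85 in the double against the LAO1 knockout (0.665) and at 0.94 for the interaction (0.772), and Lta4h at 0.38 in the double against the IL4i1 knockout (0.566).

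Transcription factors and fate genes of the secretory lineage, 17 of 17 measured, were below 0 in 9 cases with a median of -0.01 in the double knockout against wild type. First by p were the Notch ligand Dll1 (0.48, limma, adjusted p = 0.754), the endocrine factor Insm1 (-0.26, 0.807) and the epithelial factor Ehf (-0.44, 0.808). Sox9, a factor of crypt progenitors that mature tuft cells keep, was at 12.81, 11.83 and 12.33 in wild type, 11.66, 11.31 and 11.39 without LAO1, 11.1, 10.35 and 11.9 without IL4i1 and 12.17, 12.63 and 11.72 without both. The LAO1 knockout lay below every array of wild type and of the double knockout, and the IL4i1 knockout overlapped with both through its replicate 3. Its differences from wild type were -0.87 for the LAO1 (adjusted p = 1.0) and -1.21 for the IL4i1 knockout (0.524), with 1.06 for the double against the IL4i1 knockout (0.32) and 1.93 for the interaction (SE 0.52, 0.279). Sox4 was at 0.6 in the LAO1 knockout against wild type (1.0). Runx1 stood at -0.65 (0.657), 0.63 (0.538) and 0.93 (0.711) in the same 3 comparisons of the IL4i1 knockout, the double against it and the interaction. Dll1 and Insm1 stood at 0.82 (0.532) and -0.38 (0.73) in the double against the LAO1 knockout. Between the single knockouts Hmx2 stood at -0.5 (0.845) and Dll1 at -0.49 (0.85).

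Structural and signalling genes of tuft cells, 31 of 33 measured, were below 0 in 16 cases with a median of -0.04 in the double knockout against wild type. Aldh2, a mitochondrial aldehyde dehydrogenase of many cells, was at 12.13, 13.15 and 12.73 without both and at 14.3, 13.77 and 13.7 in wild type, and these did not overlap. It stood at -1.25 from wild type (SE 0.43, limma, adjusted p = 0.562) and at -1.68 from the IL4i1 knockout (SE 0.43, 0.152). The phospholipase Plcg2 was at 0.59 (0.682) and the phosphatase Inpp5j at -0.42 (0.74) from wild type. Cd300lf, a surface receptor shared with myeloid cells, stood at 0.73 in the double against the IL4i1 knockout (0.153), at -0.4 in the IL4i1 knockout against wild type (0.657) and at 0.67 for the interaction (0.619). Inpp5d, also a gene of blood cells, stood at -0.91 in the IL4i1 knockout (0.658). Inpp5j (-0.5, 0.698) and Tubb5 (0.98, 0.703) came first in the double against the LAO1 knockout, and Tubb5 was at 1.67 for the interaction (0.6). Cd24a stood at 0.5 in the LAO1 knockout against wild type (1.0) and at 0.71 between the single knockouts (0.843).

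The IL-25 and type 2 circuit had 18 of 21 genes measured, of which 7 were below 0 with a median of 0.07 in the double knockout against wild type. In the double against the IL4i1 knockout 3 of 18 were below 0, where 52.2% of all probes were, with a median of 0.22. At an unadjusted p under 0.05 (limma) 5 of the 18 were higher and 0 lower. Of all probes, 9.83% met that p in either direction. In the double knockout against wild type 1 of the 18 was higher at that p, and against the LAO1 knockout 3. The count of 5 was the largest of its kind among the 5 lists in any comparison, and the lists differ in size. Of the 12 eicosanoid genes 3 were lower at that p in the IL4i1 knockout against wild type, which 7.58% of all probes met. Il13ra2, the decoy receptor of IL-13, was at 4.73, 5.05 and 4.98 without both and 4.86, 5.02 and 4.89 without IL4i1, against 4.27, 3.93 and 4.15 in wild type. Both genotypes lay above every wild type array, at 0.8 (SE 0.26, limma, adjusted p = 0.515) and 0.81 (SE 0.26, 0.533). Il33 was at 0.62 (0.696) and Il4ra, the receptor chain through which epithelium responds to IL-13, at 0.53 (0.744) in the double knockout. Il4ra stood at 1.11 in the double against the IL4i1 knockout (SE 0.3, 0.178) and at 1.32 for the interaction (0.456), and its highest value of all arrays was the 11.11 of double knockout replicate 1. Ccl24 was at 0.62 in the double against the LAO1 knockout (0.609) and at 0.91 for the interaction (0.551), and Il33 at 0.82 in the former (0.597).

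Between the single knockouts a receptor for IL-25 and a target of IL-13 came first by p in the type 2 list. Il17rb, the receptor subunit that binds IL-25 and that tuft cells carry too, was at 6.05, 5.36 and 5.91 without LAO1 and 4.47, 4.86 and 4.8 without IL4i1, which did not overlap. The difference was 1.06 (SE 0.29, limma, unadjusted p = 0.00297, adjusted p = 0.704), and that of the LAO1 knockout from wild type 0.6 (1.0). Retnlb, a goblet cell protein induced by IL-13, was at 15.8, 18.2 and 18.04 without IL4i1, against 18.96, 19.1 and 19.16 in wild type and 18.98, 19.19 and 19.25 without LAO1. It stood at -1.73 in the IL4i1 knockout from wild type (0.52), at 1.79 between the single knockouts (0.704) and at 1.53 in the double against the IL4i1 knockout (0.273), with values near the top of the scale of the array. Tslp was at -0.47 in the LAO1 knockout against wild type (1.0). Il13 itself was dim, at 3.18 to 4.38 over the 12 arrays.

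Several of these list genes leaned on double knockout replicate 1, the array with the highest mean of the neutrophil markers. Its Il33 value, 6.35, stood against 5.24 and 5.15 in the other double knockout arrays and 5.16, 4.75 and 4.96 in wild type. Without it, a setting chosen after seeing the data and given with no test, Il33 stood at 0.24 from wild type and 0.44 from the LAO1 knockout, and Il4ra at 0.16 from wild type and 0.73 from the IL4i1 knockout. Of the taste-type genes, Itpr2 stood at -0.51 and Ffar3 at -0.17 from wild type, and Rgs13 at -0.13 from the LAO1 knockout, at -0.35 from the IL4i1 knockout and at -0.59 for the interaction. Cysltr1 stood at -0.2 from wild type and -0.24 from the LAO1 knockout, and Tubb5 at 0.43 from the LAO1 knockout. Insm1 went the other way, with a difference from wild type of -0.26 with that array and -0.4 without it. The other double knockout differences and interactions named from the lists moved by no more than 1.5 times.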

How the data were processed

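The authors deposited log2 expression values for 22206 probes on 12 arrays, with 2 decimals, between 1.72 and 19.93. Transcriptome Analysis Console was used, per the submitters' processing notes, and its version, summarisation, normalization and genome build are not given in the sources used here. Total RNA (6 µg) was labelled as biotinylated cRNA, per the labels' protocols. Array medians lay between 5.42 and 5.49, and values were used as deposited, with no filter. Where a gene had several probes, that with the highest mean was used.

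limma 3.58.1 in R 4.3.3 (lmFit, eBayes) was fitted to all probes and 12 arrays with a mean per genotype, 8 residual degrees of freedom, and tested on simulated data. Python 3.11.15 and matplotlib 3.10.9 made the tables and figures. No read depth exists for arrays, and their number limits the precision. The members and lists were chosen with earlier results of these data known. Each of the 8 members is given in all 7 comparisons. From each list come the genes past the threshold, the 3 smallest p-values of the double knockout against wild type and the 2 smallest of each other comparison. Genes whose values are set beside a member are named besides. Same-numbered arrays of different genotypes did not deviate together throughout (18 pairs, r from -0.14 to 0.22), so numbers were not taken to pair arrays. Alternatives were quantile normalization, median centring, a filter on dim probes, trend and robust options, the compared arrays alone, a replicate block, array weights and leaving out each array.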

Additional observations from a re-analysis of the deposited data

How the results depend on the processing

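No tuft cell gene passed in any comparison under any of the 19 alternatives run (18 for the interaction), and the lowest adjusted p of a member was 0.24 (limma, Gnat3, double against IL4i1 knockout, replicate block). With the replicate number as a replicate block the median differences were as reported, -0.32 for the double knockout against wild type, and no call of a member changed. The filter on dim probes kept 2 of 8 members. Counts of all probes past the threshold moved by over 1.5 times in places: against 5, 1 and 3 for the double, LAO1 and IL4i1 knockout from wild type the alternatives gave 1 to 38, 1 to 4 and 2 to 11. Against 31, 106 and 1 for the double against the LAO1 knockout, the double against the IL4i1 knockout and the single knockouts they gave 11 to 68, 33 to 174 and 0 to 4, and for the interaction 37 to 74 against 51.

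Median differences moved beyond the spread between arrays when 1 was left out in 2 cases. The double against the LAO1 knockout ran from -0.53 to -0.2, the latter without double knockout replicate 1, and the interaction from -0.47 to -0.12, the latter without LAO1 knockout replicate 1. Of 56 single differences 22 changed sign somewhere, all of them no larger than 0.13 in size as reported. Quantile normalization turned Il25 (IL4i1 knockout from wild type, -0.06; between the single knockouts, 0.04), Trpm5 (between the single knockouts, 0.01) and Pou2f3 (interaction, 0.01). Median centring turned the same Il25 and Trpm5 differences (-0.01, 0.01 and 0.02). Array weights turned Dclk1 (-0.17), Pou2f3 (0.03) and Alox5 (-0.13) in the LAO1 knockout and Gnat3 (-0.11) in the IL4i1 knockout from wild type, Il25 in the double against the IL4i1 knockout (-0.03), and Trpm5 between the single knockouts (0.09). The cause was not tested.

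Leaving out 1 array turned the following. From wild type in the double knockout, Il25 ran from -0.24 to 0.23 and Gfi1b from -0.23 to 0.13. In the LAO1 knockout Dclk1 ran from -0.15 to 0.21, Gnat3 from -0.4 to 0.16, Gfi1b from -0.15 to 0.12, Il25 from -0.29 to 0.18, Pou2f3 from -0.13 to 0.06 and Alox5 from -0.25 to 0.28. In the IL4i1 knockout Alox5 ran from -0.39 to 0.13, Il25 from -0.26 to 0.22, Dclk1 from -0.21 to 0.11 and Gnat3 from -0.22 to 0.34. For the double against the LAO1 knockout Il25 ran from -0.07 to 0.17 and Gfi1b from -0.23 to 0.12, and against the IL4i1 knockout Il25 from -0.11 to 0.08 and Pou2f3 from -0.38 to 0.14. Between the single knockouts Trpm5 ran from -0.32 to 0.24, Alox5 from -0.12 to 0.4, Il25 from -0.15 to 0.03 and Dclk1 from -0.07 to 0.29. For the interaction Pou2f3 ran from -0.35 to 0.17 and Il25 from -0.17 to 0.3.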
